A study of Mus musculus with 2 samples.

Results

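The hedgehog ligand release genes analyzed here are 10 mouse genes, chosen by name. They are the ligand genes *Shh*, *Ihh* and *Dhh*, the acyltransferase gene *Hhat*, the Dispatched genes *Disp1* and *Disp2*, the release factor genes *Scube1*, *Scube2* and *Scube3*, and the ligand-binding inhibitor gene *Hhip*. Each of the 10 has 1 row in the deposited table of 21628 entries, and all 10 are among the 17283 analyzed entries with an expression value above 0 in at least 1 library. RNAseq profiled 1 library of GFP-high cells and 1 library of GFP-low cells from P0 mice of the Sox2GFP genotype, in which a green fluorescent reporter follows expression of the transcription factor SOX2. Cells of both populations were sorted by reporter brightness from the same pooled, enzymatically peeled lingual epithelium, about 100000 cells each, and no treatment was given. The brightness gates were bins of a continuum, so the populations are not discrete cell types.

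A hedgehog ligand is made as a precursor that cuts itself. The signaling part leaves this reaction with cholesterol on its last residue, and HHAT adds palmitate to the cysteine at its first. The doubly lipidated protein is held in the membrane of the producing cell until the transporter-like protein Dispatched and secreted SCUBE proteins extract it. Outside the cell the ligand binds Patched, which frees Smoothened to activate the Gli factors, or HHIP, a membrane-anchored and secreted protein that takes ligand away from Patched. In the tongue, SHH comes from taste buds and the nerves that supply them and acts on the surrounding epithelium and connective tissue.

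The coding sequence of the acylated cysteine and of the self-cutting site is shown for each ligand, since these are the places where the ligand receives its lipids. They were read from GENCODE M21 transcripts (mm10), and all 6 stretches lie in coding exons on the minus strand. In the stretches of the first site, capitals mark the codon of the cysteine that HHAT acylates. It is codon 25 of 437 in *Shh* (chr5:28466632-28466691), codon 28 of 411 in *Ihh* (chr1:74951074-74951133) and codon 23 of 396 in *Dhh* (chr15:98898147-98898206), in exon 1 of 3 in each gene.
Shh: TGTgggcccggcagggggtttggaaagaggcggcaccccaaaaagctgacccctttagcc
Ihh: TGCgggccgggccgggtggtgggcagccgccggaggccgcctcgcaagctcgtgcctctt
Dhh: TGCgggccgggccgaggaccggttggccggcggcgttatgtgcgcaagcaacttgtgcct

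In the stretches of the second site, capitals mark the glycine and cysteine codons between which the precursor is cut and whose glycine then carries cholesterol. The site lies in exon 3 of 3 in each gene, with the glycine at codon 198 in *Shh* (chr5:28458557-28458586), codon 202 in *Ihh* (chr1:74946701-74946730) and codon 198 in *Dhh* (chr15:98894514-98894543).
Shh: aaatccggcGGCTGTttcccgggatccgcc
Ihh: aagacaggtGGCTGCtttcctgccggagcc
Dhh: cgagccggaGGCTGCtttccgggaaatgcc

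The coding sequence between the acylated cysteine and that glycine is 174 codons long in *Shh*, 175 in *Ihh* and 176 in *Dhh*. Aligned base by base, *Shh* and *Ihh* were identical at 76.0% of positions, *Shh* and *Dhh* at 71.2%, and *Ihh* and *Dhh* at 71.6%. The longest stretch identical between any pair was 17 bases, shorter than a read of 50 bases, so the values of the 3 ligands could be told apart.

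Expression is given as FPKM, which counts sequenced fragments relative to transcript length and to the size of a library, so that levels can be compared between genes. A gene was called at 5 FPKM or more in the library where it was higher and a ratio between the libraries of at least 1.5. The methods of the study word the FPKM minimum as applying to each sample. With 5 FPKM required in both libraries neither *Shh* nor *Hhip* passes, since each is below it in 1 library. The study nevertheless lists *Shh* among its genes enriched in GFP-high cells and reports *Hhip* as highly enriched in GFP-low cells. Its list of GFP-high genes therefore did not require 5 FPKM in both libraries. Because there is 1 library per population, no difference has a replicate check or a p-value in these data, and the spread between animals is not known. By qPCR of sorted cells, the paper reports *Sox2*, *Shh* and *Gli1* higher in GFP-high than in GFP-low cells. In bulk populations, fewer cells of a type and less RNA per cell cannot be told apart. *Sox2* itself was at 112 FPKM in GFP-high and 59.0 FPKM in GFP-low cells, a ratio of 1.90 in the direction of the labels. Low FPKM fall on steps that correspond to roughly 27200000 reads in the GFP-high and 32900000 reads in the GFP-low library. Estimates from alternate genes gave 31600000 and 27800000 reads for GFP-high and 32900000 and 33700000 reads for GFP-low, so the read equivalents given for single genes are approximate. Of the epithelial markers, the 7 basal keratinocyte genes held 25796 FPKM in GFP-high and 32952 FPKM in GFP-low cells. Keratinocyte transcripts were thus abundant in both populations. Of the 7, 1 was called, higher in GFP-low, beside 5.54% of all detected genes.

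Of the 10 release genes, 1 was called higher in GFP-high cells (*Shh*) and 1 higher in GFP-low cells (*Hhip*). Over all detected genes, 5.90% were called higher in GFP-high and 5.54% higher in GFP-low cells. These are 1020 and 958 genes, which became 807 and 1219 when FPKM were divided by their sum over each library (the TPM scale), with the same 2 release genes called. Among the 10760 genes that reached 5 FPKM in the higher library, the shares were 9.48% and 8.90%, and 3 of the 10 release genes (*Shh*, *Disp1* and *Hhip*) reached it. A count of 1 gene in either direction is too small to set apart from these shares. What stood out was the size of the differences, since only 21 genes (0.122% of those detected) were called with a ratio of 10 or more in the direction of *Shh* and 77 (0.446%) in that of *Hhip*. The median difference over the 10 genes was −0.09 in log2(FPKM + 1), beside −0.02 over all detected genes.

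**Figure D1:**
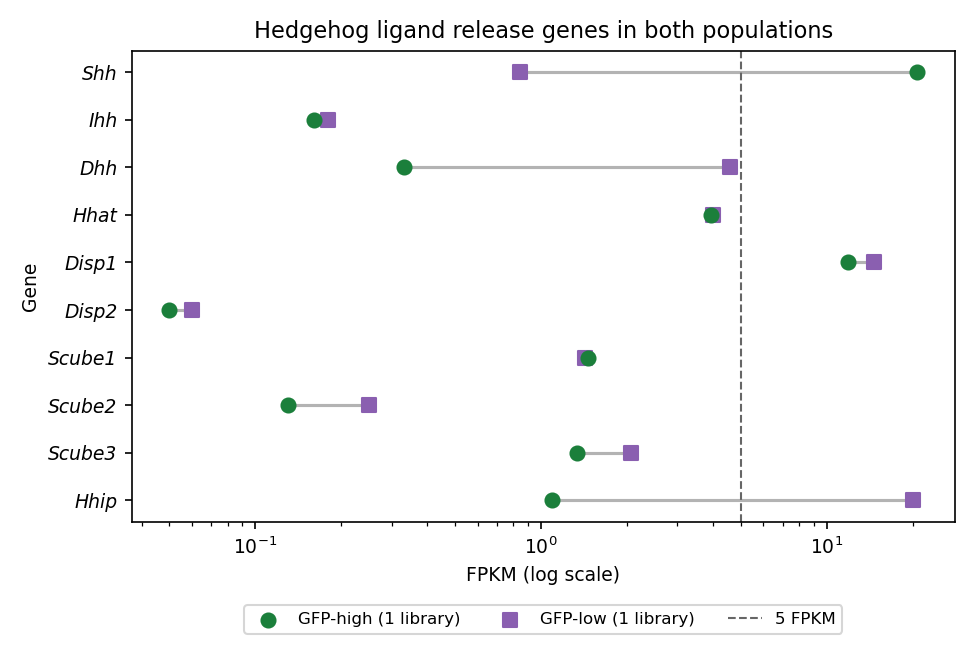
FPKM of the 10 hedgehog release genes on a log scale, with circles for the GFP-high library, squares for the GFP-low library and a dashed line at 5 FPKM. *Shh*, *Dhh* and *Hhip* have widely separated points, while the points of the other 7 genes lie within a ratio of 1.92.

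*Shh* (ENSMUSG00000002633, chromosome 5, 28456815–28467256, minus strand) encodes the ligand of taste papillae. Its level was 20.7 FPKM in the GFP-high and 0.84 FPKM in the GFP-low library, equivalent to about 1493 and 73 reads. The GFP-high library was thus far above the GFP-low library, yet *Shh* was detected in both. The ratio was 24.7, the 7th largest among the 1020 genes called higher in GFP-high cells. In GFP-high cells *Shh* was the most highly expressed of the 10 release genes and stood above 60.3% of detected genes, whereas in GFP-low cells it stood above 26.4%. Exons of the annotated antisense genes *9530036O11Rik* and *Gm26894* overlap 15.7% and 12.7% of the exonic bases of *Shh* on the opposite strand. The libraries were stranded, but whether strand entered the quantification is not given in the sources used here.

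*Dhh* (ENSMUSG00000023000, chromosome 15, 98891152–98898540, minus strand) encodes the ligand best known from Schwann cells and the testis. It went the other way, with 0.33 FPKM in the GFP-high and 4.57 FPKM in the GFP-low library, or about 36 and 608 reads. The ratio was 13.8, and the gene was left uncalled only because 4.57 FPKM is under the minimum of 5. Without an FPKM minimum it joined *Hhip*, *Scube2* and *Scube3* as 4 release genes higher in GFP-low cells, against 18.8% of all genes (and 18.1% in the GFP-high direction, with *Shh* alone among the 10). Exons of *Rhebl1*, on the same strand, overlap 12.4% of the exonic bases of *Dhh*. Exons of the antisense gene *Gm49442* overlap 25.2% of them on the opposite strand, with the limit on strand given for *Shh*. *Rhebl1* was at 6.59 FPKM in GFP-high and 11.8 FPKM in GFP-low cells, and reads in the shared bases cannot be assigned to 1 of the genes.

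*Ihh* (ENSMUSG00000006538, chromosome 1, 74945315–74951672, minus strand), the ligand gene of cartilage and gut epithelium, was barely detected. Its level was 0.16 FPKM in GFP-high and 0.18 FPKM in GFP-low cells, about 10 and 13 reads, a difference that is within counting error at this depth.

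Summed over the 3 ligands, expression was 21.2 FPKM in GFP-high and 5.59 FPKM in GFP-low cells, a ratio of 3.80, which is smaller than that of *Shh* alone. *Shh* made up 97.7% of the ligand FPKM in the GFP-high and 15.0% in the GFP-low library. *Dhh* made up 1.55% in the GFP-high library and 81.8% in GFP-low cells. The main ligand transcript therefore differed between the libraries, with *Shh* 62.8 times the level of *Dhh* in GFP-high cells and *Dhh* 5.44 times the level of *Shh* in GFP-low cells. This order was the same on every scale, since both values of a ratio come from 1 library.

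**Figure D2:**
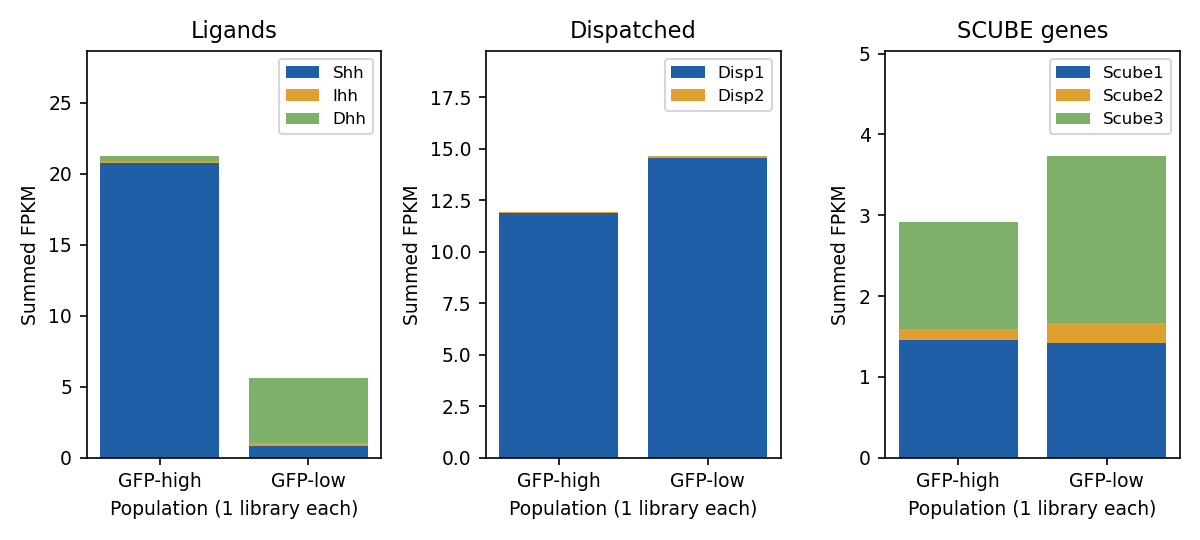
Stacked bars of summed FPKM for the ligand, Dispatched and SCUBE genes in the GFP-high and GFP-low library, each panel with its own axis starting at 0. The ligand bar is almost wholly *Shh* in GFP-high cells (97.7%) and mostly *Dhh* in GFP-low cells (81.8%), while the Dispatched and SCUBE bars differ by ratios of 1.22 and 1.28.

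*Hhat* (ENSMUSG00000037375, chromosome 1, 192496711–192771223, minus strand), which encodes the enzyme that adds palmitate to the ligand, had almost equal levels. It was at 3.92 FPKM in the GFP-high and 3.98 FPKM in the GFP-low library, a ratio of 1.02. Its direction changed when the GFP-low values were rescaled by the median ratio over genes, so no direction can be read for *Hhat*.

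*Disp1* (ENSMUSG00000030768, chromosome 1, 183086266–183221522, minus strand) is the Dispatched gene with an established part in ligand release. Its level was 11.9 FPKM in GFP-high and 14.6 FPKM in GFP-low cells, and the ratio of 1.22 was not called. *Disp2* (ENSMUSG00000040035, chromosome 2, 118779719–118811293, plus strand), a paralog best known from neural tissue, was at 0.05 FPKM in GFP-high and 0.06 FPKM in GFP-low cells, about 9 and 13 reads. Rounding to 2 decimals alone allows a ratio of *Disp2* anywhere from 1.00 to 1.44. *Disp1* was 238 times the level of *Disp2* in the GFP-high library and 243 times in GFP-low cells, so nearly all Dispatched transcript was *Disp1* in both. Relative to *Shh*, *Disp1* was at 0.574 times its level in the GFP-high library and 17.3 times its level in GFP-low cells, a contrast that comes mostly from *Shh*.

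The SCUBE genes encode secreted proteins that take up the lipidated ligand from the cell surface. All 3 were low, at 2.06 FPKM or less in either library. *Scube1* (ENSMUSG00000016763, chromosome 15, 83604999–83725021, minus strand) was at 1.46 FPKM in GFP-high and 1.42 FPKM in GFP-low cells, a ratio of 1.03 whose direction changed on the TPM scale. *Scube3* (ENSMUSG00000038677, chromosome 17, 28142141–28174854, plus strand) was at 1.33 FPKM in GFP-high and 2.06 FPKM in GFP-low cells, or about 242 and 452 reads, a ratio of 1.55 below the FPKM minimum. *Scube2* (ENSMUSG00000007279, chromosome 7, 109798676–109865679, minus strand) was at 0.13 FPKM in GFP-high and 0.25 FPKM in GFP-low cells, a ratio of 1.92 that rests on about 12 and 28 reads. In sum the family held 2.92 FPKM in GFP-high and 3.73 FPKM in GFP-low cells, and *Scube1* and *Scube3* together supplied nearly all of it. Endothelial cells also express *Scube1*, and the 9 endothelial markers summed to 37.4 FPKM in GFP-high and 26.9 FPKM in GFP-low cells. Of these markers, 1 (*Pecam1*) was called, higher in GFP-high cells, beside 5.90% of all detected genes. Their part in the level of *Scube1* was not tested.

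*Hhip* (ENSMUSG00000064325, chromosome 8, 79965851–80058006, minus strand) encodes the inhibitor that binds all 3 ligands, and in many tissues it is also a transcriptional target of the pathway. Its level was 1.09 FPKM in GFP-high and 19.98 FPKM in GFP-low cells, about 263 and 5833 reads, a ratio of 18.3. By ratio it was 49th of the 958 genes called higher in GFP-low cells, and it was the most highly expressed of the 10 release genes there. *Hhip* and *Shh* thus changed places between the libraries. *Shh* was at 19.0 times the level of *Hhip* in GFP-high cells, and *Hhip* at 23.8 times the level of *Shh* in GFP-low cells. Against *Dhh*, *Hhip* was higher in both libraries, 3.30-fold in GFP-high and 4.37-fold in GFP-low cells.

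**Figure D3:**
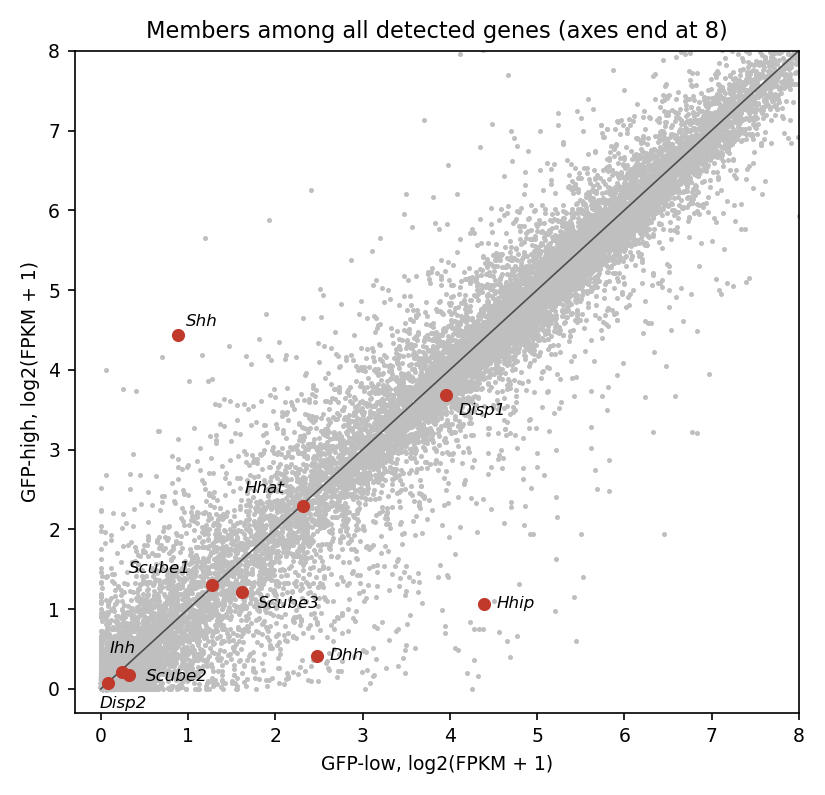
Expression of all detected genes (grey) and of the 10 hedgehog release genes (red) as log2(FPKM + 1) in the GFP-low library (horizontal axis) and the GFP-high library (vertical axis), with a line of equal expression and axes ended at 8. *Shh* lies well above the line and *Hhip* and *Dhh* well below it, with differences of 3.56, −3.33 and −2.07, and the other 7 genes lie within 0.39 of it.

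The genes whose pair of log2(FPKM + 1) values lay nearest to that of *Shh* over the 2 libraries were *Slc6a11* (16.8 and 0.62 FPKM in GFP-high and GFP-low cells, distance 0.34), a GABA transporter gene, *Mitf* (17.2 and 1.24 FPKM, distance 0.38), a transcription factor gene, and *Pex5l* (13.5 and 1.01 FPKM, distance 0.60). Nearest to *Hhip* were *2310079G19Rik* (1.14 and 21.7 FPKM, distance 0.12), *Fgl2* (0.79 and 17.8 FPKM, distance 0.28) and the endothelin receptor gene *Ednrb* (0.69 and 19.9 FPKM, distance 0.31). A likeness over 2 values is only a likeness of level and ratio.

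RefSeq promoter windows of GRCm38.p6, 300 bases each with 250 before the start site, were given for 8 of the 10 genes (9 windows in all), without *Shh* and *Disp2*. They were searched on both strands for a Gli motif (GACCACCCA), 2 SOX motifs (ACAAAG and ACAATG) and a forkhead motif (TGTTTAC). The Gli motif is found in 0.253% of all windows, a SOX motif in 28.6% and the forkhead motif in 3.65%. Of the 9 windows, 1 held a match, ACAAAG in that of *Scube1*, 228 bases before the start site. The windows of *Hhip* and *Dhh*, the genes higher in GFP-low cells, held none of these letters.

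Other genes listed as partners of ligand release and of the matrix, among them paralogs and heparan sulfate enzymes, moved less than *Shh* and *Hhip*. Of 25 such genes, 4 were called higher in GFP-high cells and 1 higher in GFP-low cells, with a median difference of −0.01 in log2(FPKM + 1). Of the 25, 20 reached 5 FPKM in the higher library. Among all genes that did, the shares called were 9.48% and 8.90%, and counts of 4 and 1 are too small to set apart from these. On the TPM scale, which shifts every log2 ratio by −0.10, the counts were 1 and 2. *Hhipl2*, an HHIP-like gene, was at 5.18 FPKM in GFP-high and 0.85 FPKM in GFP-low cells, a ratio of 6.09 in the direction opposite to *Hhip*. The other HHIP-like gene, *Hhipl1*, was at 0.09 and 0.10 FPKM. The heparan sulfate endosulfatase genes differed in direction, *Sulf1* with 5.16 FPKM in GFP-high and 1.23 FPKM in GFP-low cells and *Sulf2* with 10.1 FPKM in GFP-high and 18.5 FPKM in GFP-low cells. *Hs6st1*, which encodes a heparan sulfate 6-O-sulfotransferase, was at 210 FPKM in GFP-high and 109 FPKM in GFP-low cells. *Gpc6* was at 8.02 and 5.01 FPKM, and *Gpc3*, a glypican gene whose product binds hedgehog ligand, had the highest level of the list in both libraries at 286 and 385 FPKM. *Furin*, which encodes a protease that cuts Dispatched, was at 68.9 FPKM in GFP-high and 99.1 FPKM in GFP-low cells and was not called. The third Dispatched gene, *Disp3*, was at 0.03 FPKM in both.

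On the receiving side, 3 of 11 genes were called higher in GFP-high cells and 0 higher in GFP-low cells (3 and 2 on the TPM scale, where *Gli2* and *Gli3* passed the ratio). All 11 reached 5 FPKM in the higher library, and among all genes that did, the shares were 9.48% and 8.90%. No test could be run across replicates, so the 0 is a count by this rule only. *Gli1* and *Ptch1*, both targets of the pathway as *Hhip* is, had ratios of 3.92 and 2.93, both higher in GFP-high cells, while *Hhip* was 18.3-fold lower in GFP-high cells. Their GFP-high levels were 53.5 and 113 FPKM. *Smo* was the most highly expressed of the list in GFP-low cells, at 80.9 FPKM against 75.7 FPKM in GFP-high cells.

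Genes of cholesterol synthesis, the pathway that makes the sterol the ligand carries, were higher in GFP-high cells in 19 of 19 cases. Over all detected genes, 7883 were higher in GFP-high and 9254 higher in GFP-low cells. Of the 19, 11 (57.9%) were called, beside 9.48% of all genes that reached 5 FPKM in the higher library, as all 19 did. *Ebp*, at 97.9 FPKM in the GFP-high and 96.2 FPKM in the GFP-low library, turned to the other direction on the TPM scale. The median difference was 0.61 in log2(FPKM + 1). On the TPM scale, 9 were called, and with a ratio of at least 2, only *Mvk* and *Dhcr7*. *Dhcr7*, which encodes the last reductase of the pathway, was at 106 FPKM in GFP-high and 49.8 FPKM in GFP-low cells, and *Mvk*, the mevalonate kinase gene, at 168 and 80.7 FPKM. *Sqle*, *Msmo1* and *Fdps* had ratios between 1.93 and 1.97, and *Pmvk*, *Cyp51*, *Mvd*, *Sc5d* and *Fdft1* between 1.51 and 1.75. *Hmgcs1* had the highest level in both libraries, 255 and 206 FPKM, and was not called. Suprabasal keratinocyte markers also moved in this direction, with summed levels of 73028 and 32483 FPKM. Of these 8 markers, 4 were called higher in GFP-high cells, beside 5.90% of all detected genes. Their part in the cholesterol gene difference was not tested.

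**Figure D4:**
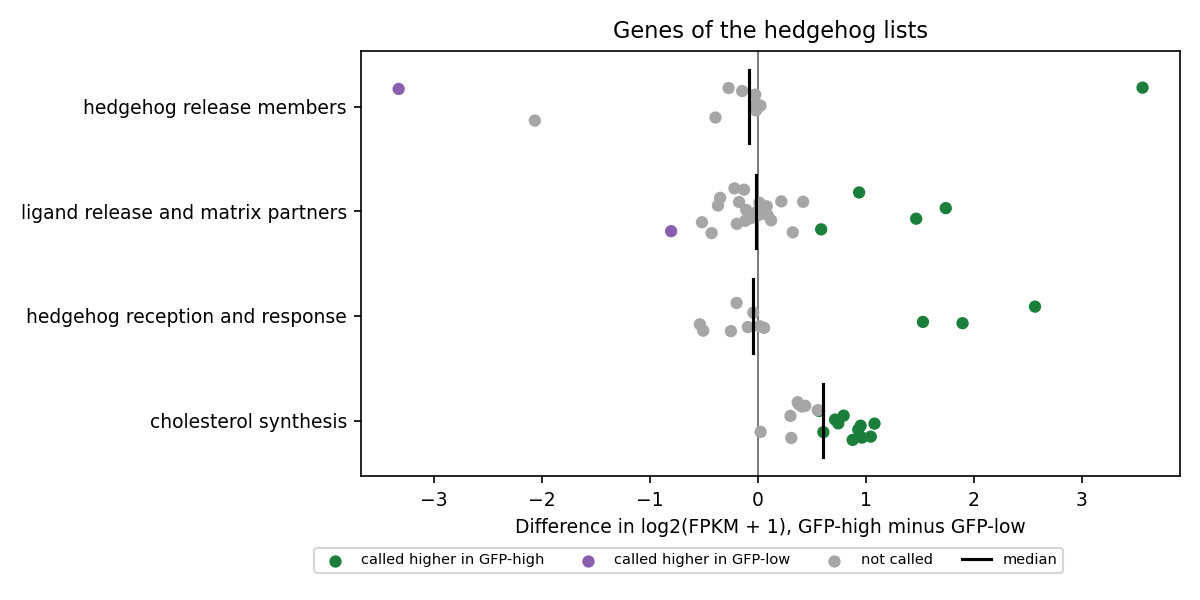
Difference in log2(FPKM + 1), GFP-high minus GFP-low, for each gene of the 4 hedgehog lists, with green for genes called higher in GFP-high cells, purple for genes called higher in GFP-low cells, grey for genes not called and a black bar at the median. The release genes have the widest spread, from −3.33 to 3.56, and the cholesterol genes lie together above 0 with a median of 0.61 (*Ebp*, nearest to 0, falls below it on the TPM scale).

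Markers of other cell types are given beside *Dhh*, *Hhip* and *Shh*. For *Dhh*, 6 of 9 Schwann lineage markers were called higher in GFP-low cells and 1 higher in GFP-high cells. Over all detected genes, the shares called in these directions were 5.54% and 5.90%. The summed levels of the markers were 151 FPKM in GFP-high and 343 FPKM in GFP-low cells, and no marker was at 0. The glial transcription factor gene *Sox10* was at 0.51 FPKM in GFP-high and 42.7 FPKM in GFP-low cells. *Foxd3* was at 0.12 and 19.0 FPKM, *Cdh19* at 0.12 and 7.68 FPKM, and the myelin gene *Mbp* at 22.4 and 55.3 FPKM. *Egr2* was the exception, with 61.3 FPKM in GFP-high and 24.3 FPKM in GFP-low cells, and *S100b* (0.12 and 3.44 FPKM) and *Erbb3* (60.3 and 66.9 FPKM) were not called. Their part in the level of *Dhh* was not tested.

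For *Hhip*, 6 of 11 fibroblast markers were called higher in GFP-low cells and none higher in GFP-high cells by this rule. Over all detected genes, the shares called in these directions were 5.54% and 5.90%. The summed levels of the markers were 498 FPKM in GFP-high and 2306 FPKM in GFP-low cells, and no marker was at 0. *Postn* had a ratio of 10.5, *Col1a1*, *Col1a2* and *Col3a1* of 4.99 to 5.02, *Dcn* of 3.52 and *Lum* of 1.62, all smaller than the ratio of 18.3 of *Hhip*. Of the 5 not called, *Twist2* went the other way, with 2.27 FPKM in GFP-high against 0.50 FPKM in GFP-low cells, as did *Thy1* with 19.6 against 16.2 FPKM. *Pdgfra*, which marks fibroblasts broadly, was at 1.42 and 1.46 FPKM, *Pdgfrb* at 1.36 and 2.96 FPKM, and *Fbn1* at 24.3 and 34.8 FPKM. Their part in the level of *Hhip* was not tested.

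For *Shh*, the listed markers of differentiated taste cells were mostly low and mixed in direction. From the same libraries, the paper reports other genes tied to taste cells and progenitors as enriched in GFP-high cells. Among them are *Slc6a11*, the gene nearest to *Shh*, *Prox1*, *Krt8*, *Krt19* and *Hes6*. Over all detected genes, 5.90% were called higher in GFP-high and 5.54% higher in GFP-low cells. Of 7 type III markers, 6 were higher in GFP-high cells but at 0.87 FPKM or less there, and *Ncam1* was called higher in GFP-low cells. The type III sums were 10.2 and 12.0 FPKM. Of 7 type II markers, none was called, *Gnat3* (0.92 FPKM) and *Gng13* (1.77 FPKM) being listed at 0 in GFP-low cells, and the sums of 105 and 144 FPKM came mostly from *Itpr3*. Of 3 type I markers, 2 were called higher in GFP-low cells and *Kcnj1* was listed at 0 in both, with sums of 32.1 and 76.5 FPKM. The 7 neuronal markers with values summed to 15.7 FPKM in GFP-high and 3.96 FPKM in GFP-low cells, the direction of *Shh*, mostly from *Stmn2* (10.4 and 2.22 FPKM, called) and *Syt1* (4.64 and 0.92 FPKM, not called). *Elavl3*, *Elavl4* and *Nefl* were at 0.21 FPKM or less in both libraries. In the paper, gustatory neurons that express SHH belong to the VIIth cranial ganglion and reach taste buds by their neurites. The sorted cells came from peeled lingual epithelium, and whether they held material of these neurons was not tested. The part of taste cells, or of cells with neuronal transcripts, in the level of *Shh* was not tested.

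Of 8 skeletal muscle, 8 leukocyte and 6 melanocyte markers, 1 of each list was called, all higher in GFP-high cells. Over all detected genes, 5.90% were called in that direction, and 1 call in a list is too few to set apart from this share. Skeletal muscle markers summed to 19.6 FPKM in GFP-high and 17.5 FPKM in GFP-low cells, leukocyte markers to 53.1 and 45.5 FPKM, and melanocyte markers to 18.5 and 3.91 FPKM. The calls were of *Tnnt3*, *Cpa3* and *Mitf*, and *Mitf* alone carried the melanocyte difference. The pigment cell genes *Dct* (0.23 and 0.91 FPKM), *Tyrp1* (0.04 and 0.88 FPKM) and *Mlana* (listed at 0 and 0.15 FPKM) went the other way, *Pmel* was at 1.09 and 0.73 FPKM, and *Tyr* was listed at 0 in both libraries.

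**Figure D5:**
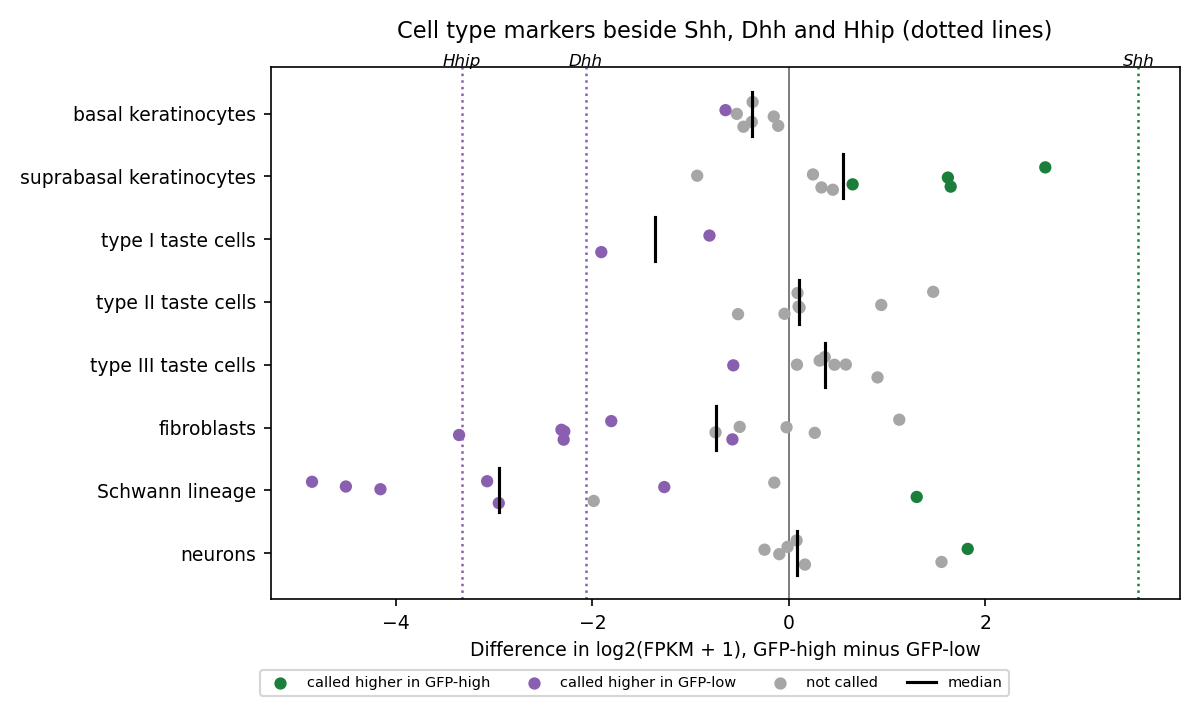
Difference in log2(FPKM + 1), GFP-high minus GFP-low, for the markers of 8 cell types, colored by call as in the plot of the hedgehog lists, with black bars at the medians and dotted lines at the differences of *Hhip*, *Dhh* and *Shh*. Most Schwann lineage markers (median −2.95) and the 6 called fibroblast markers lie on the side of *Hhip* and *Dhh*, and no marker shown reaches the difference of *Shh*.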

How the data were processed

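RNAseq of 1 GFP-high and 1 GFP-low library was analyzed. The authors trimmed single-end reads with Trimmomatic 0.36, mapped them to mm10 with GSNAP, and obtained FPKM with Cufflinks 2.2.1, and the deposited FPKM are rounded to 2 decimals. The columns are named means, but the labels give 1 library each. A further deposited column, a signed score of the authors made from both FPKM columns, was not used. The labels give about 75000000 reads per sample, more than the depth that low FPKM point to (27200000 reads for GFP-high and 32900000 reads for GFP-low), found as the depth at which most low values were near whole reads in single-transcript genes with 400 to 2500 nt of exons less 200 nt. At these depths 61.9% of 181 and 68.6% of 137 low values lay within 0.15 of a whole read. These are too few to turn the values back into counts for a count test. Of values spread evenly, 30% would at a depth fixed beforehand. The depths here were chosen for the largest share, so the 30% is not a like comparison.

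Entries typed other than protein-coding in GENCODE M21 were left out (21607 kept), and 17 without a number in 1 library were not compared. A gene was called at 5 FPKM or more in the higher library and a ratio of at least 1.5, and a 0 in the lower library passed the ratio. The study's methods word the minimum as applying to each sample, which is the alternative of 5 FPKM in both libraries. Its list of GFP-high genes nevertheless includes *Shh*, which is below 5 FPKM in GFP-low cells. Lists use log2(FPKM + 1), which understates the change of low genes. The 10 genes, the lists and the rules were chosen with earlier results of these data known. Named genes are the 10, the called and highest genes of each pathway list, the 3 nearest genes to *Shh* and *Hhip*, and markers beside them. *Hhipl1*, *Furin* and *Disp3* were named after their values were seen. Values for *Tubb3* were not used here, and some genes that the rule names are not reported here. Sequences were aligned with Biopython 1.88 (gap opening −4, extension and mismatch −1), and tables were made with Python 3.11.15 and pandas 2.3.3. The call rule and depth estimate were run on simulated data with planted changes well above the ratio minimum, little noise and exact transcript lengths. Such a run checks that the code works and does not measure errors in these libraries. The alternatives were FPKM minimums of none, 1, 10 and 5 in both libraries, a ratio of 2, pseudocounts of 1 and 0.1, division by the FPKM sum (TPM) and scaling GFP-low by the median ratio (0.973).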

Additional observations from a re-analysis of the deposited data

How the results depend on the processing

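Each of the 9 alternatives was applied to the calls. *Shh* was the 1 release gene called higher in GFP-high cells under 8 of them, and *Hhip* was called higher in GFP-low cells under the same 8. With 5 FPKM required in both libraries, neither was called and the counts were 0 and 0, since each gene is below 5 FPKM in its lower library. This is the minimum as the methods of the study word it. The study's list of genes enriched in GFP-high cells includes *Shh*, however. That list therefore did not require 5 FPKM in both libraries. The count of release genes higher in GFP-low cells rose from 1 to 4 without an FPKM minimum (*Dhh*, *Scube2*, *Scube3* and *Hhip*) and to 3 with a minimum of 1 FPKM (*Dhh*, *Scube3* and *Hhip*). The log2 ratio of *Shh* ranged from 3.56 to 4.67, that of *Hhip* from −4.30 to −3.33 and that of *Dhh* from −3.89 to −2.07, each smallest in size with a pseudocount of 1. *Scube1* (0.04) turned to −0.06 on the TPM scale and *Hhat* (−0.02) to 0.02 with GFP-low scaled by the median ratio.

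Over all genes, 1020 and 958 were called in the direction of GFP-high and of GFP-low cells. The counts were 3136 and 3250 without an FPKM minimum, 1541 and 1563 with a minimum of 1 FPKM, and 448 and 467 with a ratio of 2, and with 5 FPKM in both libraries the counts were 777 and 633. Genes higher in GFP-high cells were 51.6% of those called, and 39.8% on the TPM scale. Of the 3 other pathway lists, 19 genes were called, and 7 with a ratio of 2. No paired analysis was possible because each population has 1 library, and for the same reason no library could be left out. Differences of *Ihh*, *Disp2* and *Scube2* rest on about 9 to 28 reads, too few to show a difference of their size reliably.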
